A study of Mus musculus with 33 samples.

Results

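The glycolysis, gluconeogenesis and glycogen genes of mouse liver were described as a module of 36 genes listed by symbol. All 36 were found among the 19169 genes of the deposited count table, and all 36 passed the filter on low counts. Polyadenylated RNA of 33 liver libraries was sequenced. Nlrp3A350V/+CreT knock-in (KI) livers, in which tamoxifen switches on a mutant copy of the inflammasome sensor Nlrp3, were set beside wild-type (WT) livers. For 6 weeks both genotypes ate either a diet containing GS-444217, which blocks the stress kinase ASK1, or control chow containing placebo. The groups were 10 KI libraries on the inhibitor diet (KI ASK1i, 5 female and 5 male), 5 KI libraries on control chow (KI control, 1 female and 4 male), 8 WT libraries on the inhibitor diet (WT ASK1i, 4 and 4) and 10 WT libraries on control chow (WT control, 7 and 3). The sources used here give neither the age of the mice, nor the cells in which the Cre recombinase was active, nor whether WT mice received tamoxifen. No label ties each library to its own mouse, and the p-values therefore reflect library-to-library spread, part of which may be technical.

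Total counts per library ran from 28099685 to 40008114. Nlrp3 itself lay at 7.87 to 15.6 CPM (counts scaled to a common library size after TMM normalisation) in KI control and at 1.62 to 4.96 CPM in WT control. One library goes against its label. KI ASK1i replicate 5 held 2.10 CPM of Nlrp3, against 5.51 CPM or more in the other 9 KI ASK1i libraries, and it lay at -59.2 on the first principal component (62.2% of the variance) among WT libraries, whereas the other 9 lay at 54.8 to 103. Fold changes and counts of the KI ASK1i group are therefore also given without the library labelled KI ASK1i replicate 5. The defining hepatocyte markers were present in every group. Their summed level (11 genes) was 38346 to 59630.5 CPM in KI control and 119764 to 149581 CPM in WT control.

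Glycolysis splits glucose to pyruvate, and gluconeogenesis runs the shared middle steps backwards, with enzymes of its own around the irreversible steps. The liver holds isoenzymes that suit it to store and release glucose: the low-affinity transporter Slc2a2 (GLUT2), liver pyruvate kinase Pklr, the liver glycogen synthase Gys2 and glucose-6-phosphatase G6pc, which lets free glucose leave the cell. Most other cells, leukocytes among them, use Slc2a1 or Slc2a3 (GLUT1 and GLUT3), Hk1 to Hk3, Pkm and Gys1 instead. Fructose enters through the kinase Khk. Ugp2 makes UDP-glucose, from which Gys2 and the branching enzyme Gbe1 build glycogen, and the phosphorylase Pygl breaks glycogen down.

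Promoter sequences are shown for 6 genes of which opposite changes are described below: the liver-type genes Slc2a2, Pklr and G6pc, which were lower in KI, and Pkm, Slc2a1 and Hk2, which were higher. They are RefSeq windows of build GRCm38.p6 from 250 bases before to 50 bases after a start, read 5′ to 3′ on the gene's strand. Pklr and Pkm have a pair of windows each. Capitals mark 3 of the motifs searched, each on both strands. ACGTG is the core of hypoxia response elements and also part of the E-box CACGTG. The motif of the TATA box is TATAAA. The third, the GC box to which Sp1 binds, is GGGCGG.
Pklr promoter, chr3:89135892-89136191, plus strand: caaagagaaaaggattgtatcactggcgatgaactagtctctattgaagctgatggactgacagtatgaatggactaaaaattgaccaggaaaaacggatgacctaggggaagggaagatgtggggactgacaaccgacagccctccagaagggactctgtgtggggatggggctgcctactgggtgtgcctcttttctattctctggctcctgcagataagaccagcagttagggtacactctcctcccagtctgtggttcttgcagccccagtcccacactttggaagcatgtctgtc
Pklr promoter, chr3:89136373-89136672, plus strand: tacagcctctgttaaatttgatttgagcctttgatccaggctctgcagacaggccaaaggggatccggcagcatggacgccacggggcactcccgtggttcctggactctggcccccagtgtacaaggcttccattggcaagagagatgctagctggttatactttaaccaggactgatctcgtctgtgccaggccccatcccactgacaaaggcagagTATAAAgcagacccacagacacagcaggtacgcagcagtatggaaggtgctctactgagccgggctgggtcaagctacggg
Slc2a2 promoter, chr3:28697653-28697952, plus strand: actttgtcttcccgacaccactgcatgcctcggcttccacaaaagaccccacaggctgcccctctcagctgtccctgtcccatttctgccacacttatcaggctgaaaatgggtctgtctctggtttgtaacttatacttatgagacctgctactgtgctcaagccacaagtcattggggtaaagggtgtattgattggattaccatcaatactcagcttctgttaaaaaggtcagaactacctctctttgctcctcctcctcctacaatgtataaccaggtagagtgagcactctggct
G6pc promoter, chr11:101367466-101367765, plus strand: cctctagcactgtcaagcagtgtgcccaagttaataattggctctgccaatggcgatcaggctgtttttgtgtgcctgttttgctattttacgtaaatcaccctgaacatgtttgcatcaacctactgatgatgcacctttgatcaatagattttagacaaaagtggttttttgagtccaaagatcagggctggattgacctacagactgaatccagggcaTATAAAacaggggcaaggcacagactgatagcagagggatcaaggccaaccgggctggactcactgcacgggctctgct
Pkm promoter, chr9:59656326-59656625, plus strand: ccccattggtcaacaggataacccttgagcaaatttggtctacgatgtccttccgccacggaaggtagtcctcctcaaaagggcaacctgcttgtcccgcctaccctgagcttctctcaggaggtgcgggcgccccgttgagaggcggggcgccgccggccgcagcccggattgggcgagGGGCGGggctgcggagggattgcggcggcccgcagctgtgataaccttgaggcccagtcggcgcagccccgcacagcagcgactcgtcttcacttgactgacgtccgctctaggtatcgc
Pkm promoter, chr9:59656977-59657276, plus strand: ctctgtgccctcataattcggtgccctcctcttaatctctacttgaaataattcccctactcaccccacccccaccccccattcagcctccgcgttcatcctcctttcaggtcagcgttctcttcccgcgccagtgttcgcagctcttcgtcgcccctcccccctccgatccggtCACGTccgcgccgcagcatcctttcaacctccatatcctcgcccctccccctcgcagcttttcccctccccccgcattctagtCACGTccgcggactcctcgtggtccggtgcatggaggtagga
Slc2a1 promoter, chr4:119108495-119108794, plus strand: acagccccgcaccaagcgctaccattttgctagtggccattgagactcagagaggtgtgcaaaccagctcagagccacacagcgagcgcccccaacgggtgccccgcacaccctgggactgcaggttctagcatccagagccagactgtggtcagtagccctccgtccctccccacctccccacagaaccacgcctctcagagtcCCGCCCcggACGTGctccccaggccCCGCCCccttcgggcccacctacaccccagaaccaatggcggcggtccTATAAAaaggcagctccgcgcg
Hk2 promoter, chr6:82774405-82774704, minus strand: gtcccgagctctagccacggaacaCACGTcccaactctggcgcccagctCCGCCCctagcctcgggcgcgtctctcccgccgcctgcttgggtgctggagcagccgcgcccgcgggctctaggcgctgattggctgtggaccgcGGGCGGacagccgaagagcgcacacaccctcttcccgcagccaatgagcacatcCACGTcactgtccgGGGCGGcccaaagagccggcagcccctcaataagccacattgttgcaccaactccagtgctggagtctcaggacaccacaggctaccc

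Of the 36 genes, 33 had at least 1 window, 50 in all. ACGTG stood in 18 of these 50 windows, against 19.62% of all 32851 RefSeq mouse windows of that length. GGGCGG stood in 29 of 50, against 35.66% of all. TATAAA stood in 5 of 50, against 13.62% of all. By gene, ACGTG was in a window of 6 of the 11 genes with a window that rose in KI control and of 7 of the 18 that fell. GGGCGG was in a window of 9 of the 11 and of 11 of the 18. Among the windows printed, the Slc2a2 window and one Pklr window held none of the 3 motifs, those of G6pc and Slc2a1 and the other Pklr window held TATAAA, and Hk2 held ACGTG at 2 places and GGGCGG at 3. These are matches of letters, not measured binding.

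On control chow, the transporter Slc2a2, pyruvate kinase Pklr, glucose-6-phosphatase G6pc and glycogen synthase Gys2 were lower in KI than in WT liver, and Slc2a3, Pkm, Hk1 to Hk3, Pfkp and Gys1 were higher. Of the 36 genes, 12 were higher and 20 lower in KI control than in WT control (edgeR quasi-likelihood test, adjusted p under 0.05 over 14934 genes). The background was high: 27.8% of all genes tested were higher and 28.9% lower, together 56.7%. The median log2 fold change was -0.32 over the 36 genes and -0.03 over all genes tested. The extremes were Slc2a3 at 3.57 and Slc2a2 at -3.36. On the ASK1i diet, 11 of the 36 genes were higher and 21 lower in KI ASK1i than in WT ASK1i, against 30.3% and 28.8% of all genes (59.1% together), with a median of -0.31 against 0.01 over all genes. The genotype comparisons on the 2 diets share no library, though 1 model gave both. Their calls had 10 higher genes in common, which is 83.3% of those on control chow and 90.9% of those on the ASK1i diet, and 19 lower genes, which is 95.0% and 90.5%. Over all genes tested the shares in common were 85.9% and 78.7% of the higher calls and 79.4% and 79.9% of the lower ones. Without KI ASK1i replicate 5 the counts on the ASK1i diet were 11 and 20. Of all 14928 genes tested in that fit, 4742 were higher and 4693 lower.

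**Figure D1:**
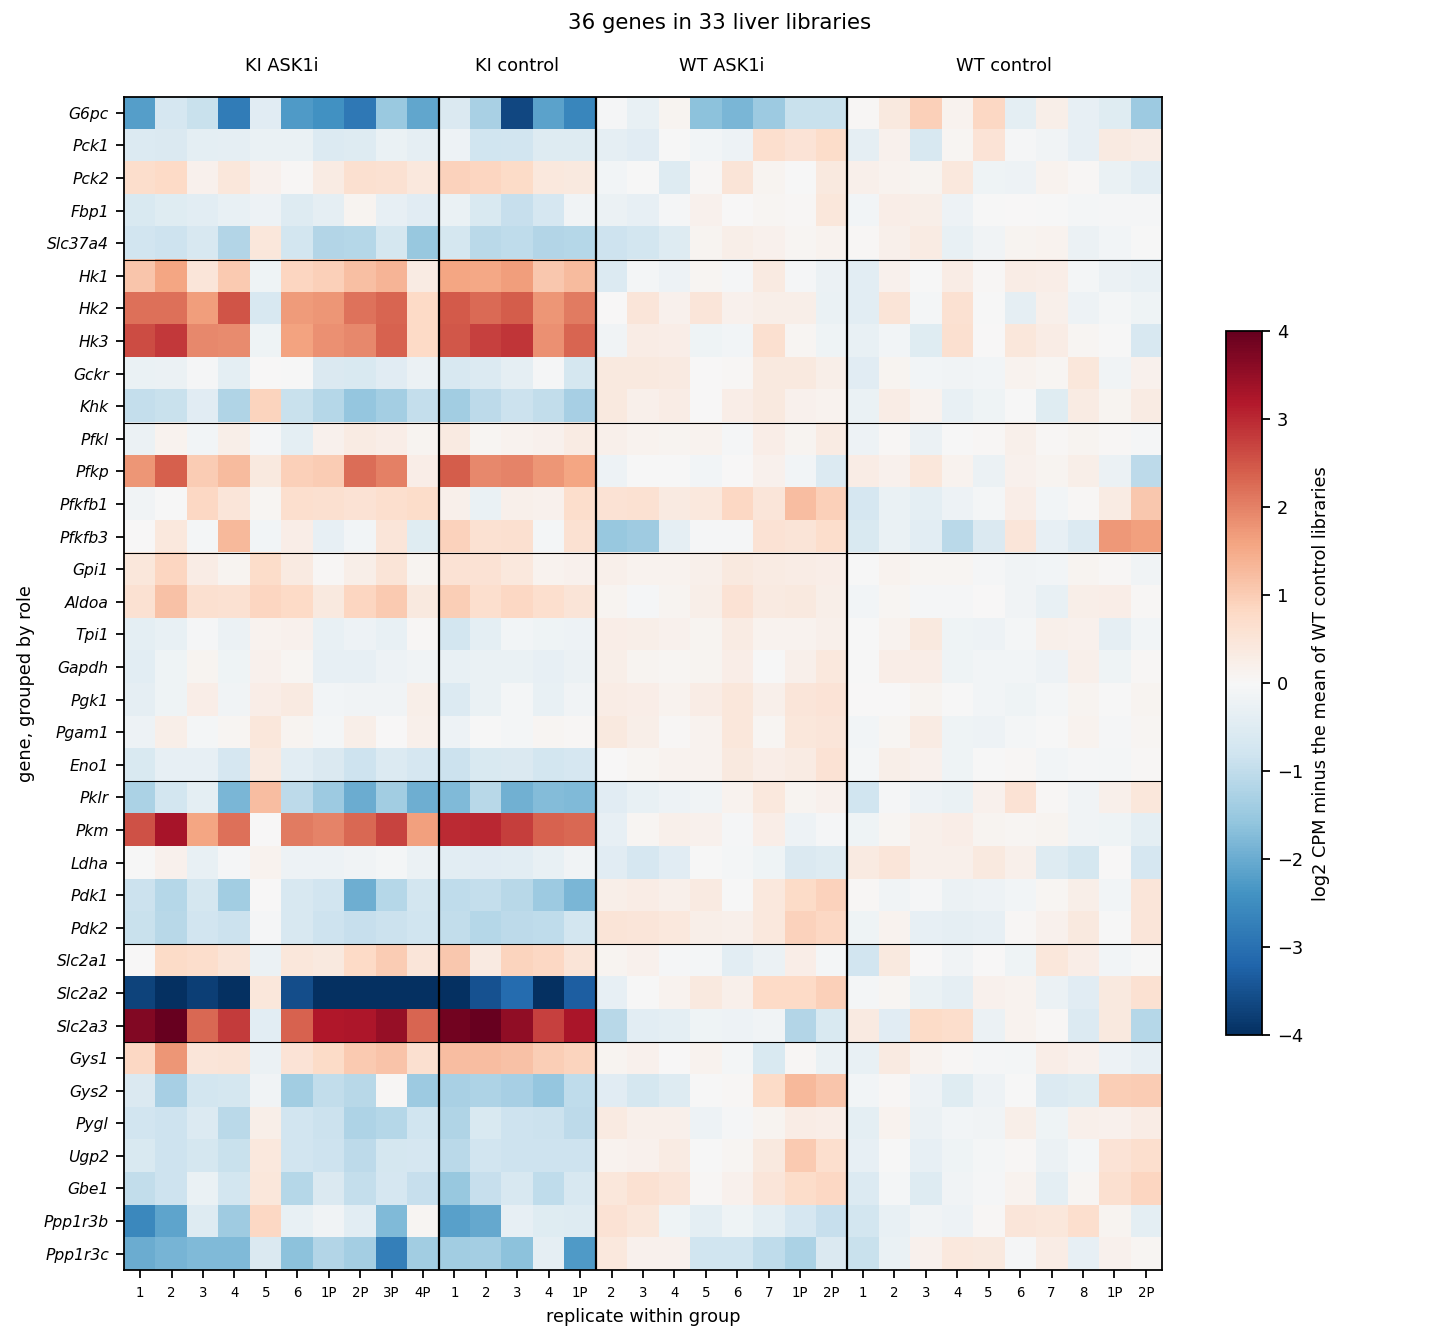
Level of each of the 36 genes (rows, grouped by role) in each of 33 libraries (columns, by group and replicate), as log2 CPM minus the mean of the 10 WT control libraries; the colour scale ends at 4 in each direction. Pkm, Slc2a3 and Hk1 to Hk3 are mostly red and Slc2a2 is dark blue in the KI columns other than KI ASK1i replicate 5.

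**Figure D2:**
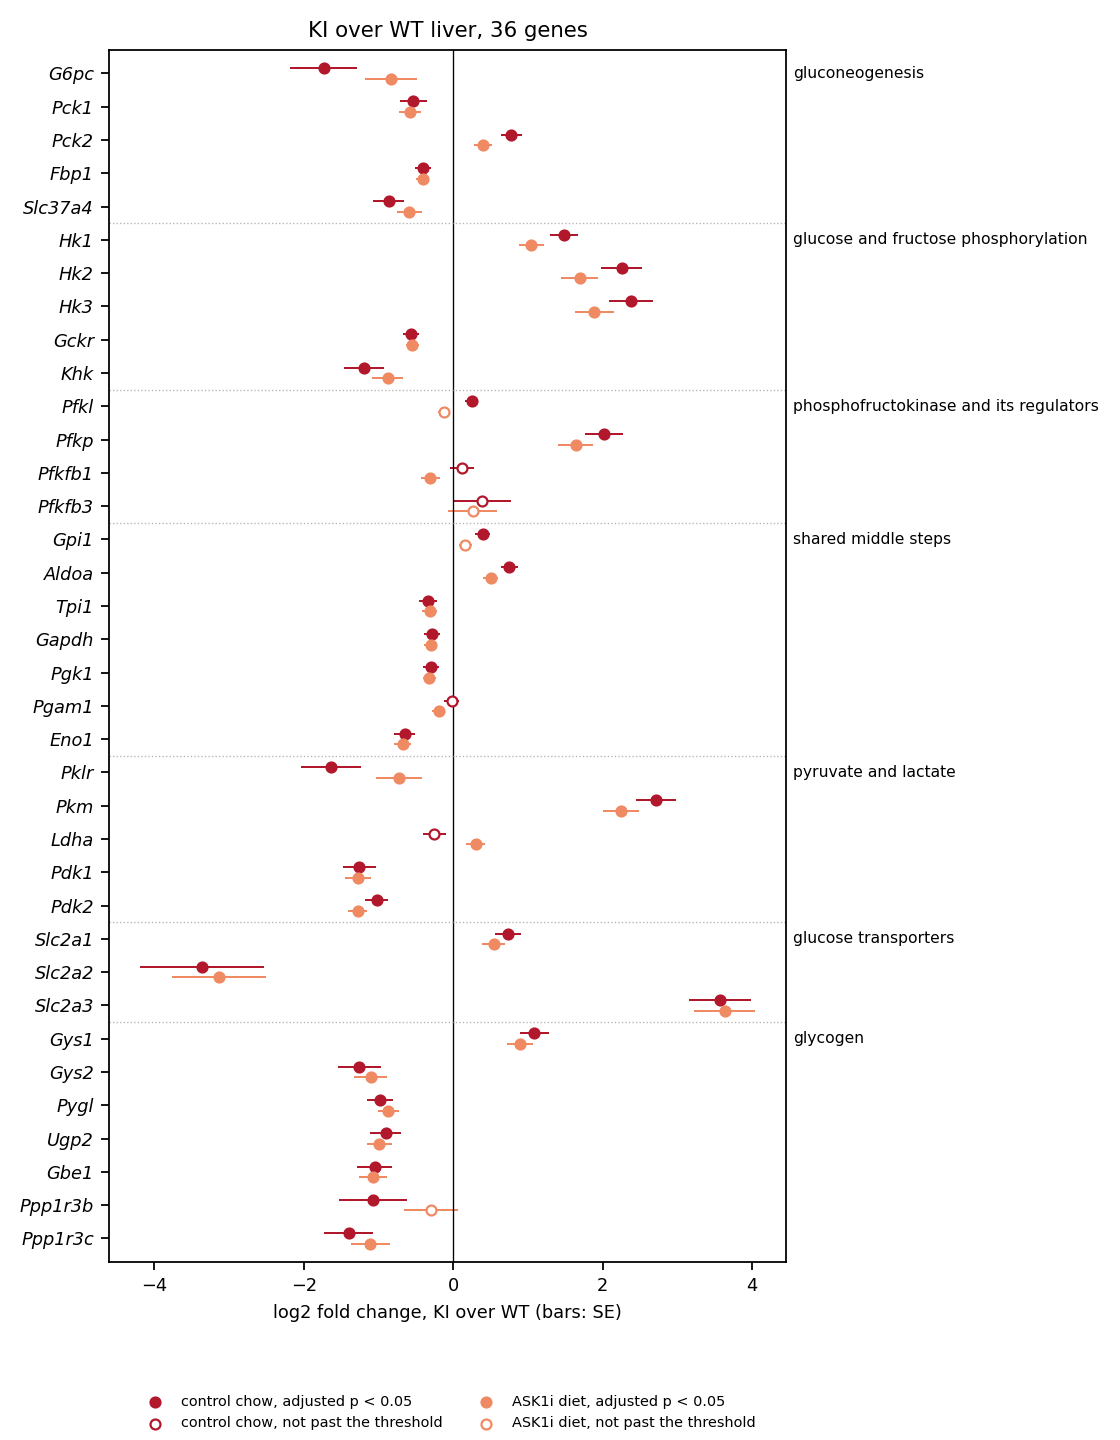
Log2 fold change of KI over WT for 36 genes, on control chow (dark red) and with the inhibitor (orange), with bars of 1 SE; filled points have an adjusted p under 0.05. On control chow 12 genes lie to the right and 20 to the left with filled points.

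The 3 glucose transporters held both extremes. Slc2a2, the transporter through which hepatocytes take up and release glucose (mm10 chromosome 3, 28697902 to 28728360), held 11.7, 22.2, 29.2, 11.4 and 25.3 CPM in the 5 KI control libraries, against a lowest, median and highest of 181, 246 and 371 CPM in WT control. All 5 KI control libraries lay below every WT control library, and the fitted level was 10.3-fold lower (log2 fold change -3.36, SE 0.83, adjusted p = 0.0011). With the inhibitor the 3 values were 4.60, 11.8 and 334 CPM in KI ASK1i and 194, 302 and 471 CPM in WT ASK1i. The highest KI ASK1i value belonged to replicate 5, and the other 9 libraries lay at 4.60 to 21.0 CPM. The log2 fold change on that diet was -3.14 (SE 0.63), adjusted p = 1e-04, and -4.82 (SE 0.29), adjusted p = 2.7e-14, without replicate 5. Slc2a3, the high-affinity transporter of neurons and leukocytes (chromosome 6, 122727808 to 122742745), went the other way. It held 17.2, 25.2, 13.8, 7.90 and 11.4 CPM in KI control, against 0.540, 1.27 and 2.01 CPM (lowest, median, highest) in WT control (log2 fold change 3.57, SE 0.42, adjusted p = 5.37e-08), and 0.884, 9.61 and 25.7 CPM in KI ASK1i, against 0.531, 0.905 and 1.08 CPM in WT ASK1i (log2 fold change 3.64, SE 0.41, adjusted p = 1.67e-08). The groups did not overlap on control chow, while with the inhibitor 9 of 10 KI libraries lay above every WT library. Slc2a1, the transporter of most tissues, rose less: it averaged 20.5 ± 4.12 CPM (SD, n = 5) in KI control and 12.4 ± 2.76 CPM (SD, n = 10) in WT control (log2 fold change 0.73, SE 0.17, adjusted p = 0.000686), and the value on the ASK1i diet was 0.54 (SE 0.15), adjusted p = 0.00266.

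Of the 5 genes of sugar phosphorylation, 3 rose and 2 fell in KI on both diets. Those that rose were the hexokinases Hk1, Hk2 and Hk3, which bind glucose tightly and are made mostly outside hepatocytes, and those that fell were Khk and Gckr. Hk3 held 32.1, 38.2, 41.3, 20.4 and 29.0 CPM in KI control, against 3.66, 5.78 and 8.97 CPM (lowest, median, highest) in WT control (log2 fold change 2.39, SE 0.29, adjusted p = 1.18e-07). Hk2 held 17.5, 15.4, 17.3, 11.0 and 13.4 CPM in KI control, against 2.38, 3.04 and 4.89 CPM in WT control (log2 fold change 2.25, SE 0.28, adjusted p = 1.23e-07). Hk1 held 15.7, 15.2, 16.6, 11.1 and 12.5 CPM in KI control, against 3.93, 5.28 and 6.47 CPM in WT control (log2 fold change 1.48, SE 0.19, adjusted p = 2.29e-07). None of the 3 hexokinases overlapped between KI control and WT control. Between KI ASK1i and WT ASK1i their log2 fold changes were 1.89 for Hk3, 1.69 for Hk2 and 1.04 for Hk1, with adjusted p = 4.68e-07, 1.26e-06 and 4.15e-06. Without replicate 5 they were 2.02, 1.84 and 1.15. Gckr, a nuclear regulatory protein of hexose phosphorylation, held 74.8, 79.5, 89.4, 113 and 71.7 CPM in KI control, against 84.5, 115 and 158 CPM in WT control (log2 fold change -0.57, SE 0.11, adjusted p = 8.64e-05), so the ranges overlapped. Gckr held 75.3, 97.0 and 116 CPM in KI ASK1i, against 117, 150.0 and 153 CPM in WT ASK1i (log2 fold change -0.55, SE 0.09, adjusted p = 5.72e-06), where all 10 KI libraries were below every WT library, the nearest by 116.4 against 116.5 CPM. Khk, the fructose kinase, held 76.0, 95.6, 109.6, 100.3 and 79.4 CPM in KI control, against 143, 205 and 249.9 CPM in WT control, with no overlap (log2 fold change -1.19, SE 0.27, adjusted p = 0.000391). In KI ASK1i, Khk held 67.5, 102 and 366 CPM, against 198, 234 and 259 CPM in WT ASK1i, and the highest KI value was replicate 5. Its log2 fold change on that diet was -0.88 (SE 0.21) with that library and -1.27 (SE 0.10) without it.

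**Figure D3:**
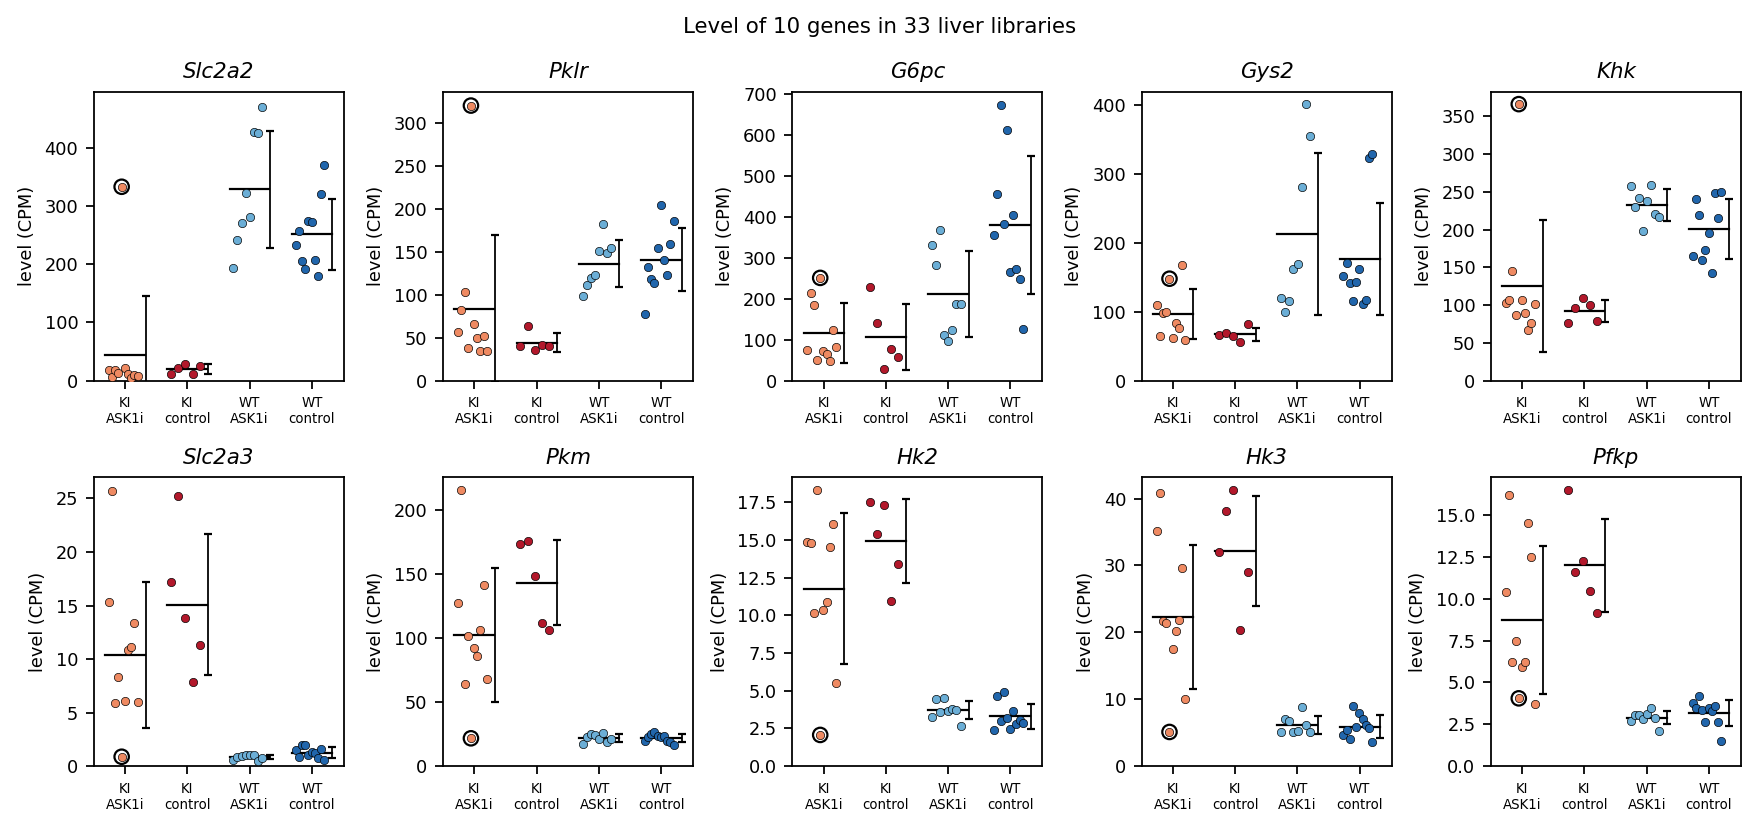
Level (CPM, linear axis from 0) of 10 genes in every library by group; lines are group means, bars are 1 SD, cut at 0 where they would pass below it, and the ringed point is KI ASK1i replicate 5. The upper row shows genes lower in KI and the lower row genes higher in KI; in Slc2a2 the ringed point lies at 334 CPM and the other 9 KI ASK1i points at 21.0 CPM or less.

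Of the phosphofructokinase subunits, which form the enzyme of the committed step of glycolysis, the platelet-type Pfkp rose the most. It held 16.5, 11.6, 12.2, 10.4 and 9.16 CPM in KI control, against 1.49, 3.42 and 4.19 CPM (lowest, median, highest) in WT control (log2 fold change 2.02, SE 0.26, adjusted p = 2.04e-07), with no overlap. In KI ASK1i it held 3.71, 6.86 and 16.2 CPM, against 2.09, 2.96 and 3.46 CPM in WT ASK1i (log2 fold change 1.64, SE 0.23, adjusted p = 7.05e-07), and all 10 KI libraries lay above every WT library. Pfkl, the liver subunit, averaged 32.2 ± 2.72 CPM (SD, n = 5) in KI control and 27.9 ± 2.56 CPM (SD, n = 10) in WT control (log2 fold change 0.25, SE 0.09, adjusted p = 0.0168). That small rise ended without KI control replicate 1 (adjusted p = 0.0618), and on the ASK1i diet the value was -0.13 (SE 0.07), adjusted p = 0.139. Pfkfb1 and Pfkfb3 make and remove fructose 2,6-bisphosphate, the activator of phosphofructokinase. Neither passed on control chow. Pfkfb1 (chromosome X, 150589920 to 150643860) averaged 17.8 ± 4.27 CPM (SD, n = 5) in KI control and 16.0 ± 6.24 CPM (SD, n = 10) in WT control (log2 fold change 0.12, SE 0.16, adjusted p = 0.539), and Pfkfb3 22.1 ± 4.99 CPM (SD, n = 5) in KI control and 18.9 ± 15.7 CPM (SD, n = 10) in WT control (log2 fold change 0.39, SE 0.38, adjusted p = 0.399). Pfkfb3 did not pass on the other diet either (log2 fold change 0.26, SE 0.33, adjusted p = 0.505). Under the inhibitor Pfkfb1 was lower in KI, with 13.9, 23.0 and 26.8 CPM (lowest, median, highest) in KI ASK1i and 19.6, 23.0 and 35.6 CPM in WT ASK1i (log2 fold change -0.31, SE 0.13, adjusted p = 0.042), but the call ended without KI ASK1i replicate 5 (adjusted p = 0.0577) and without any 1 of 14 other libraries.

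The enzymes of the shared middle steps, which serve both directions, moved little and not together. Aldoa, the aldolase of muscle and most other tissues, rose, with 128, 103, 115, 102 and 92.2 CPM in KI control and 51.8, 63.6 and 77.7 CPM (lowest, median, highest) in WT control (log2 fold change 0.75, SE 0.12, adjusted p = 3.91e-06). The groups did not overlap, and on the ASK1i diet the log2 fold change was 0.50 (SE 0.10), adjusted p = 9.7e-05. Gpi1, the glucose-6-phosphate isomerase, averaged 156 ± 22.0 CPM (SD, n = 5) in KI control and 119 ± 8.55 CPM (SD, n = 10) in WT control (log2 fold change 0.39, SE 0.10, adjusted p = 0.00198), and did not pass on the ASK1i diet (log2 fold change 0.16, SE 0.09, adjusted p = 0.11) but passed when KI ASK1i replicate 4 or 1P was left out. Eno1, an enolase, fell the most of the 7, with 287, 340.5, 349, 316 and 331 CPM in KI control and 465, 509 and 619.9 CPM in WT control (log2 fold change -0.65, SE 0.14, adjusted p = 0.00023), again without overlap. Eno1 held 297, 353 and 665 CPM in KI ASK1i and 527, 606 and 786 CPM in WT ASK1i (log2 fold change -0.68, SE 0.11, adjusted p = 5.36e-06), and the log2 fold change was -0.80 without replicate 5. Gapdh, the most abundant of them per length and a common housekeeping reference, held 545, 553, 558, 536 and 561 CPM in KI control and 586, 643 and 809 CPM in WT control (log2 fold change -0.28, SE 0.11, adjusted p = 0.0259). The KI control values of Gapdh lay below every WT control value, though the fitted difference was only 1.21-fold. Tpi1 (-0.34, adjusted p = 0.0179) and Pgk1 (-0.29, adjusted p = 0.0231) also fell, and Pgam1 did not pass (-0.02, adjusted p = 0.872). Leaving out KI control replicate 1 ended the calls of Tpi1 (-0.19, adjusted p = 0.193), Pgk1 and Gapdh, and leaving out KI control replicate 4 ended the calls of Pgk1 and Gapdh, as did WT control replicate 8 or 2P for Gapdh. The highest adjusted p was 0.155 for Pgk1 and 0.0844 for Gapdh. Between KI ASK1i and WT ASK1i, Tpi1 (-0.32), Gapdh (-0.30), Pgk1 (-0.32) and Pgam1 (-0.20) were all lower, with adjusted p = 0.0059, 0.00337, 0.00247 and 0.0456. The call of Pgam1 ended in 21 of 33 fits that left out 1 library. Counts of Gapdh, Pgam1 and Eno1 were not whole in 33 of 33 libraries, those of Pfkl in 28 and those of Pgk1 in 11, as when reads are shared with near-identical copies, so these genes are uncertain one by one.

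At the end of glycolysis the pyruvate kinases moved in opposite directions. Pkm, the pyruvate kinase of most tissues (mm10 chromosome 9, 59656367 to 59679375), held 174, 176, 149, 112 and 106 CPM in KI control, against 16.6, 23.0 and 26.3 CPM (lowest, median, highest) in WT control. It was 6.58-fold higher (log2 fold change 2.72, SE 0.26, adjusted p = 4.25e-09), with the smallest p among the 36 genes on that diet, and the groups did not overlap. In KI ASK1i Pkm held 21.8, 97.0 and 216 CPM, against 17.2, 22.1 and 26.2 CPM in WT ASK1i (log2 fold change 2.25, SE 0.24, adjusted p = 9.86e-09). The lowest KI value was replicate 5, and the other 9 libraries held 64.5 CPM or more. Pklr (mm10 chromosome 3, 89136141 to 89146594) averaged 44.2 ± 11.0 CPM (SD, n = 5) in KI control and 141 ± 36.7 CPM (SD, n = 10) in WT control (log2 fold change -1.64, SE 0.40, adjusted p = 0.000996). With the inhibitor Pklr averaged 83.8 ± 85.9 CPM (SD, n = 10) in KI ASK1i and 136 ± 27.4 CPM (SD, n = 8) in WT ASK1i (log2 fold change -0.73, SE 0.31, adjusted p = 0.044). The size of that value depends on replicate 5, which held 320.1 CPM, against 34.5 to 104 CPM in the other 9 KI ASK1i libraries. Without it the log2 fold change was -1.28 (SE 0.20), adjusted p = 1.51e-06, whereas leaving out any 1 of 16 other libraries ended the call. Pdk1 and Pdk2, kinases that shut off pyruvate dehydrogenase, both fell. Pdk2 held 37.9, 34.0, 36.2, 36.9 and 45.7 CPM in KI control, against 58.2, 76.0 and 104 CPM in WT control (log2 fold change -1.02, SE 0.16, adjusted p = 2.88e-06). Pdk1 held 43.6, 46.4, 41.6, 32.6 and 24.8 CPM in KI control, against 75.8, 84.3 and 124 CPM in WT control (log2 fold change -1.26, SE 0.22, adjusted p = 2.5e-05). Neither overlapped between KI control and WT control. Pdk2 held 34.6, 41.9 and 73.2 CPM in KI ASK1i, against 85.7, 103 and 144 CPM in WT ASK1i (log2 fold change -1.28, SE 0.12, adjusted p = 2.08e-09), and all 10 KI libraries were below every WT library. For Pdk1, which fell there too (-1.28, adjusted p = 4.68e-07), 9 of 10 were. Ldha, the lactate dehydrogenase subunit favoured in glycolytic cells, held 481, 464, 478, 521 and 575 CPM in KI control, against 390.3, 737 and 892 CPM in WT control, and did not pass (log2 fold change -0.25, SE 0.16, adjusted p = 0.167). In KI ASK1i it held 523, 592 and 726 CPM, against 401, 467 and 634 CPM in WT ASK1i (log2 fold change 0.30, SE 0.13, adjusted p = 0.04), a rise that ended in 6 of 33 fits that left out 1 library.

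Of the 5 gluconeogenic genes, 4 were lower and Pck2 higher in KI on both diets. G6pc (mm10 chromosome 11, 101367729 to 101377903) averaged 106 ± 80.3 CPM (SD, n = 5) in KI control and 379.6 ± 168 CPM (SD, n = 10) in WT control (log2 fold change -1.73, SE 0.45, adjusted p = 0.00172). G6pc averaged 116 ± 74.0 CPM (SD, n = 10) in KI ASK1i and 211 ± 104 CPM (SD, n = 8) in WT ASK1i (log2 fold change -0.83, SE 0.35, adjusted p = 0.0426), and this call ended in 16 of 33 fits that left out 1 library. Slc37a4, which carries glucose-6-phosphate to that enzyme, averaged 135 ± 19.4 CPM (SD, n = 5) in KI control and 273 ± 38.2 CPM (SD, n = 10) in WT control (log2 fold change -0.86, SE 0.21, adjusted p = 0.000837), without overlap, and fell on the other diet too (-0.59, adjusted p = 0.00334). Pck1, the cytosolic PEP carboxykinase and the most abundant of the 36 genes per length, held 2966, 1989, 2016, 2411 and 2386 CPM in KI control, against 2217, 3488 and 5005 CPM in WT control (log2 fold change -0.53, SE 0.18, adjusted p = 0.0134). The ranges overlapped, and in KI ASK1i the values were 2288, 2659 and 2871 CPM, against 2508, 3268 and 5733 CPM in WT ASK1i (log2 fold change -0.58, SE 0.15, adjusted p = 0.00116). Fbp1, fructose-1,6-bisphosphatase, was modestly lower in KI control than in WT control (-0.40, adjusted p = 0.00209) and in KI ASK1i than in WT ASK1i (-0.41, adjusted p = 0.000179). Pck2, the mitochondrial PEP carboxykinase, was far less abundant. It held 8.48, 8.23, 7.59, 6.09 and 5.94 CPM in KI control, against 3.37, 4.76 and 5.98 CPM in WT control (log2 fold change 0.78, SE 0.14, adjusted p = 3.01e-05), and 4 of 5 KI control libraries exceeded every WT control library. With the inhibitor the rise of Pck2 was 0.40 (SE 0.12), adjusted p = 0.0048. Several of these calls depended on the libraries and terms of the model. Within libraries with plainly numbered titles, Pck1 did not pass on control chow (-0.40, adjusted p = 0.149), nor on the ASK1i diet did Pck1 (-0.36, adjusted p = 0.118), Slc37a4 (-0.30, adjusted p = 0.191) or G6pc (-0.65, adjusted p = 0.273). With a code from the titles as a term in place of title set (the L code, of unstated meaning), the control chow values were -0.25 (adjusted p = 0.784) for G6pc and 0.45 (adjusted p = 0.0807) for Pck2, and G6pc did not pass on the ASK1i diet (-0.71, adjusted p = 0.146). Fbp1 passed in each of these fits.

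Of the 7 glycogen genes, 6 were lower and 1, Gys1, was higher in KI control. Pygl, the liver phosphorylase (chromosome 12, 70190814 to 70227683), held 175, 266, 230.1, 224 and 196 CPM in KI control, against 306, 409 and 496 CPM (lowest, median, highest) in WT control (log2 fold change -0.98, SE 0.18, adjusted p = 3.2e-05). Ugp2, which makes UDP-glucose, held 121, 149, 142, 143 and 143 CPM in KI control, against 202, 239 and 401 CPM in WT control (log2 fold change -0.90, SE 0.20, adjusted p = 0.000408). Gbe1, the branching enzyme, held 29.7, 44.1, 53.5, 41.4 and 54.6 CPM in KI control, against 57.3, 80.7 and 153 CPM in WT control (log2 fold change -1.05, SE 0.23, adjusted p = 0.000342). In all 3 every KI control library lay below every WT control library. In KI ASK1i, 9 of 10 libraries lay below every WT ASK1i library for these 3 genes, all but replicate 5. The log2 fold changes there were -0.87 for Pygl, -0.99 for Ugp2 and -1.08 for Gbe1, and -1.07, -1.22 and -1.33 without it. Gys2, the liver glycogen synthase, averaged 67.2 ± 9.41 CPM (SD, n = 5) in KI control and 176 ± 80.9 CPM (SD, n = 10) in WT control (log2 fold change -1.26, SE 0.28, adjusted p = 0.000418), again without overlap. Gys1, the synthase of muscle and most other tissues, averaged 6.68 ± 0.696 CPM (SD, n = 5) in KI control and 3.14 ± 0.514 CPM (SD, n = 10) in WT control (log2 fold change 1.09, SE 0.20, adjusted p = 3.06e-05). Ppp1r3c and Ppp1r3b, subunits that bring protein phosphatase 1 to glycogen, were both lower on control chow (-1.40, adjusted p = 0.000659, and -1.07, adjusted p = 0.0434). The KI control libraries spread widely for Ppp1r3b, at 37.6, 40.7, 135, 120.1 and 117 CPM, and its call ended in 13 of 33 fits that left out 1 library. Between KI ASK1i and WT ASK1i, Gys2 (-1.11, adjusted p = 9.9e-05) and Ppp1r3c (-1.11, adjusted p = 0.000607) fell, Gys1 rose (0.89, adjusted p = 5.08e-05) and Ppp1r3b did not pass (log2 fold change -0.30, SE 0.36, adjusted p = 0.496).

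Leaving out KI ASK1i replicate 5 moved the genotype differences on the inhibitor diet away from 0 for most genes of the module. The log2 fold change of KI ASK1i over WT ASK1i was then 3.82 for Slc2a3, 2.4 for Pkm, 1.75 for Pfkp, 1.00 for Gys1 and 0.61 for Slc2a1. Among genes lower in KI it was -1.45 for Pdk1, -1.42 for Pdk2, -1.28 for Ppp1r3c, -1.24 for Gys2, -0.95 for G6pc, -0.78 for Slc37a4, -0.61 for Pck1 and -0.60 for Gckr. All of these passed the test. Ppp1r3b (-0.68, adjusted p = 0.0816), Gpi1 (0.12, adjusted p = 0.215), Pfkl (-0.12, adjusted p = 0.182) and Pfkfb3 (0.27, adjusted p = 0.506) did not pass, as with that library, and Pfkfb1 no longer did. Aldoa (0.49), Ldha (0.30), Pck2 (0.46), Fbp1 (-0.42), Tpi1 (-0.36), Gapdh (-0.35), Pgk1 (-0.37) and Pgam1 (-0.25) passed with either set of libraries. On control chow the same 12 higher and 20 lower genes were called without it, against 4329 higher and 4597 lower of 14928 genes tested. There Slc2a2 was -3.80 (SE 0.36), adjusted p = 3.85e-10, against -3.36 (SE 0.83) with it. Pklr was -1.79 (SE 0.25), adjusted p = 3.26e-07, against -1.64 (SE 0.40). Others moved less, such as Gpi1 (0.38 against 0.39).

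Library titles fall into a set with plain numbers and a set with a P. In WT control some of the 36 genes did not overlap between the sets. With 2 P libraries against 8 numbered ones some separation arises by chance, and the share over all genes was not counted. Some gaps were narrow, as for Pfkp, at most 2.61 CPM in the P set and at least 2.63 CPM in the numbered set. Gys2, Ugp2, Gbe1, Pfkfb1, Pfkfb3 and Slc2a2 were higher in the P set, and G6pc, Pck2, Pfkp and Pkm lower. Both P libraries of WT control were male, and all its numbered ones but replicate 8 were female. Title set and sex can therefore hardly be told apart in this comparison. Gys2 held 323 and 328 CPM in the 2 P libraries of WT control, against 112 to 170.4 CPM in the 8 numbered ones. Pfkfb3 held 45.9 and 49.8 CPM there, against 7.00 to 20.8 CPM. G6pc held 126 and 249 CPM there, against 264 to 673 CPM. Title set was a term in the model, and within numbered titles alone the log2 fold change of Gys2 on control chow was -0.91 (SE 0.26), adjusted p = 0.00657, and those of Ugp2 and Gbe1 were -0.64 and -0.83. Pfkfb3 passed there in KI control as a rise (1.2, adjusted p = 0.0075). Over the 36 genes, numbered titles alone gave 12 higher and 16 lower on control chow and 10 higher and 13 lower on the ASK1i diet. Numbered titles alone ended the calls of Pck1, Pfkl, Gapdh, Pgk1 and Ppp1r3b on control chow, and of G6pc, Pck1, Slc37a4, Pfkfb1, Gapdh, Pgk1, Pgam1, Pklr and Ldha on the other diet. In males alone, of which KI control has 4 libraries and WT control 3, 10 were higher and 15 lower on control chow. On the other diet the counts were 10 and 14. Shares of all genes in these subsets are not given here, so their counts are not read as a trait of the module. The P set held 1 KI control library and gave no value of its own. Column headers of the counts also carry a prefix of unstated meaning, which divides the P set. The 2 P libraries of WT control share theirs with the numbered libraries, and all other P libraries bear another. Title set as a term does not adjust for this prefix, which is constant within each L code. The L code was never shared by a KI control and a WT control library, so it and the genotype cannot be told apart on control chow. As a term it ended the control chow calls of G6pc, Pck2, Pfkl, Gpi1, Tpi1, Gapdh, Pgk1, Ppp1r3b and Ppp1r3c, and those of G6pc and Ldha on the ASK1i diet.

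The balance between paired genes can be read within a library, here as the ratio of CPM per kilobase of exon, given as values without a test. Pkm stood at 3.89 ± 0.973 times the level of Pklr in KI control (SD, n = 5) and at 0.196 ± 0.0612 times in WT control (SD, n = 10), so the more abundant of the pair was Pkm in all 5 KI control libraries and Pklr in all 10 WT control libraries. In KI ASK1i the ratio was 0.730 to 3.62 in 9 libraries and 0.0797 in replicate 5, against 0.150 to 0.244 in WT ASK1i. Slc2a1 to Slc2a2 stood at 1.17 to 3.73 in KI control and 0.0520 to 0.139 in WT control. In KI ASK1i it was 1.12 to 7.78 in 9 libraries and 0.0529 in replicate 5, against 0.0409 to 0.116 in WT ASK1i. In both pairs the order of the 2 genes differed between genotypes, apart from replicate 5 and, for Pkm to Pklr, KI ASK1i replicate 3. The synthase ratio Gys1 to Gys2 was higher in KI control yet far below 1, at 0.0512 to 0.0799, against 0.00540 to 0.0243 in WT control. Pfkp to Pfkl was 0.229 to 0.404 in KI control and 0.0482 to 0.155 in WT control. Pfkfb3 to Pfkfb1 overlapped, at 0.309 to 0.656 in KI control and 0.198 to 0.955 in WT control.

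**Figure D4:**
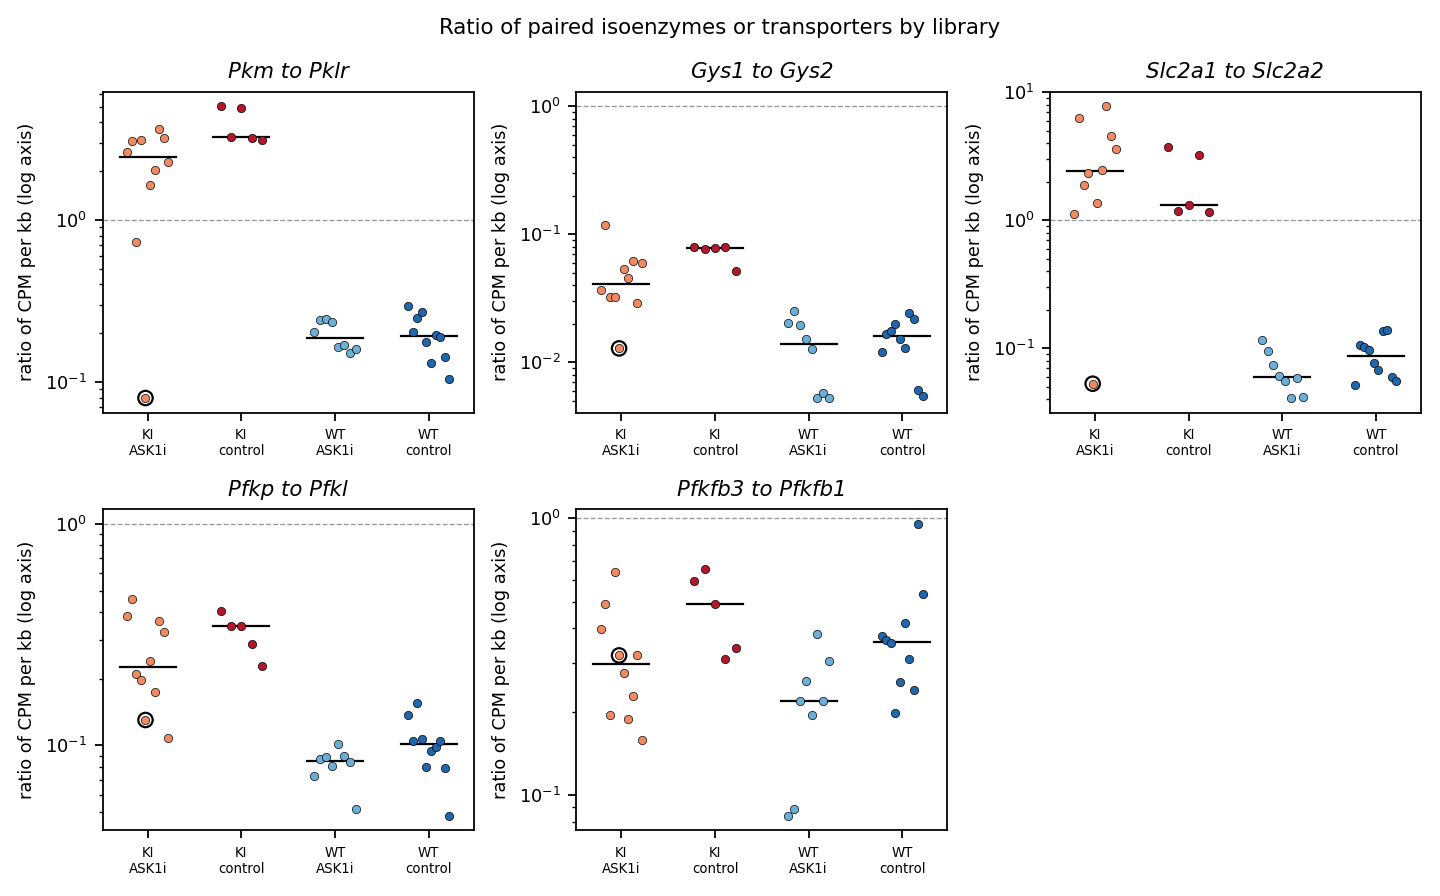
Ratio of CPM per kilobase of 5 gene pairs in each library (log axis; the dashed line is equal levels, short lines are medians, the ringed point is KI ASK1i replicate 5). Pkm to Pklr and Slc2a1 to Slc2a2 lie above 1 in all 5 KI control libraries and below 1 in all 10 WT control libraries.

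Compared per kilobase of exon, the order of levels in WT control began with Pck1 (1323 ± 326 CPM per kb, SD, n = 10), Fbp1 (704.5 ± 72.7), Gapdh (449.9 ± 59.8) and Ldha (351 ± 98.6), and ended with Hk2 (0.587 ± 0.152) and Slc2a3 (0.323 ± 0.122). In KI control Pck1 (884 ± 149 CPM per kb, SD, n = 5) and Fbp1 (497 ± 109.7) still led. Slc2a2 stood at 3.58 ± 1.44 CPM per kb in KI control and 45.2 ± 10.9 in WT control, which placed it below Pkm (55.2 ± 12.7) in KI control and above Pkm (8.45 ± 1.16) in WT control. Fbp1 and Gapdh, neighbours in that order, were further apart than either SD in both groups, whereas Tpi1 (207 ± 33.3) and Eno1 (206 ± 19.5) in WT control did not differ beyond their SDs.

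Marker genes of other cells moved with these changes. All 11 neutrophil markers measured rose in KI on both diets, and none was at 0 in every library of a group. Their summed level was 715 to 3870 CPM in KI control and 4.20 to 19.6 CPM in WT control, and 708.4 to 5055 CPM in 9 KI ASK1i libraries, 7.80 CPM in replicate 5 and 3.45 to 8.62 CPM in WT ASK1i. All 10 monocyte and macrophage markers rose on both diets as well, with sums of 1310 to 1692 CPM in KI control and 169 to 410.1 CPM in WT control, as did all 7 Kupffer cell markers, with 1625 to 2157 CPM in KI control and 319 to 1015 CPM in WT control. Of 11 hepatocyte markers, 9 fell in KI control, and in KI ASK1i 8 fell and 1 rose. Among 8 stellate cell and myofibroblast markers, 5 rose and 0 fell in KI control, with sums of 131 to 224 CPM in KI control and 92.6 to 119.7 CPM in WT control. Among 6 liver endothelial markers, 4 rose and 0 fell, with 356 to 424 CPM in KI control and 266 to 354 CPM in WT control. Of 7 T and B cell markers, 2 rose and 3 fell. With the inhibitor, 3 stellate markers rose and 1 fell, 3 endothelial markers rose and 0 fell, and 1 T and B cell marker rose and 3 fell. Without replicate 5 these counts were the same except for 2 T and B cell markers higher. The shares of all genes tested were 27.8% higher and 28.9% lower on control chow, and 30.3% and 28.8% on the ASK1i diet. Leukocytes express Hk3, Slc2a3 and Pkm strongly, stellate and endothelial cells also use Slc2a1, Hk1, Pkm and Gys1, and hepatocytes express Slc2a2, Pklr, G6pc and Gys2. The part of these cells in the changes of the module was not tested, and in bulk RNA fewer cells of a type and less RNA per cell cannot be told apart. In the library labelled KI ASK1i replicate 5 the summed neutrophil, monocyte and macrophage, Kupffer cell and hepatocyte markers lay within the range of WT ASK1i. So did Pkm, Slc2a2, Slc2a3, Hk1, Hk3 and Pygl of the module, among others. Outside that range lay Hk2, Pdk2, Gckr and Pfkfb1 below it, and Pfkp, Khk, Pklr, Slc37a4, Aldoa, Gpi1, Ldha and Ppp1r3b above it.

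Genes around the module that are not among the 36 were counted from lists chosen by function. For comparison, of all genes tested 27.8% rose and 28.9% fell in KI on control chow, and 30.3% and 28.8% on the ASK1i diet. Among 32 other enzymes of glycolysis and gluconeogenesis, 6 rose and 16 fell in KI control. Pfkfb4, a further maker of fructose 2,6-bisphosphate, averaged 13.3 ± 2.84 CPM (SD, n = 5) in KI control and 1.41 ± 0.492 CPM (SD, n = 10) in WT control (log2 fold change 3.31, SE 0.31, adjusted p = 3.07e-09). Pdk3 (2.82), a pyruvate dehydrogenase kinase like Pdk1 and Pdk2, and Adpgk (1.15), an enzyme that phosphorylates glucose with ADP, rose too, with adjusted p = 1.23e-07 and 1.52e-07. The falls with the smallest p were those of Pfkm (-1.07), the muscle phosphofructokinase subunit, Pdp2 (-1.09), a pyruvate dehydrogenase phosphatase, and Pdha1 (-0.90), a pyruvate dehydrogenase subunit, with adjusted p = 4.86e-07, 1.6e-06 and 3.64e-06. On the ASK1i diet 7 rose and 15 fell in KI, or 8 and 17 without replicate 5. Among 20 other glycogen genes, 4 rose and 9 fell on control chow and 4 rose and 8 fell on the ASK1i diet (5 and 9 without replicate 5). Ppp1r3d, another glycogen-targeting phosphatase subunit (3.09, adjusted p = 7.65e-08), and Pygb, the brain-type phosphorylase (1.50, adjusted p = 8.7e-07), were higher in KI control. The phosphoglucomutases split, with the gene under the symbol Pgm1 higher (1.12, adjusted p = 3.17e-06) and that under Pgm2 lower (-0.72, adjusted p = 5.52e-06). The deposited counts carry some older symbols, so which of these 2 is the main enzyme of glycogen was not settled here. Phka2, the liver phosphorylase kinase alpha subunit, was lower (-0.53, adjusted p = 0.000451). Of 11 other sugar and lactate transporters, 3 rose and 5 fell on control chow, and 4 rose and 5 fell on the ASK1i diet, with or without replicate 5. Slc16a3, the lactate exporter MCT4, averaged 8.60 ± 3.01 CPM (SD, n = 5) in KI control and 0.392 ± 0.135 CPM (SD, n = 10) in WT control (log2 fold change 4.58, SE 0.41, adjusted p = 1.93e-09), and the glucose transporter Slc2a6, found in leukocytes, rose by 3.18 on the log2 scale (adjusted p = 1.09e-08).

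Of 24 hormone and transcription regulators, 2 rose and 9 fell in KI control, and 5 rose and 14 fell in KI ASK1i (5 and 13 without replicate 5). Among all genes tested, 27.8% rose and 28.9% fell on control chow, and 30.3% and 28.8% on the ASK1i diet. The glucagon receptor Gcgr averaged 103 ± 9.45 CPM (SD, n = 5) in KI control and 206 ± 19.1 CPM (SD, n = 10) in WT control (log2 fold change -1.04, SE 0.18, adjusted p = 1.18e-05). Mlxipl, which encodes the glucose sensor ChREBP and acts on Pklr, averaged 84.0 ± 9.27 CPM (SD, n = 5) in KI control and 228 ± 67.0 CPM (SD, n = 10) in WT control (log2 fold change -1.55, SE 0.26, adjusted p = 1.42e-05), and Ppara, the fasting regulator, fell as well (-1.38, adjusted p = 5.81e-05). Sik1, a salt-inducible kinase that restrains gluconeogenic transcription, rose (log2 fold change 1.97, SE 0.44, adjusted p = 0.000383). Of 17 hypoxia-responsive genes outside glycolysis, 6 rose and 4 fell in KI control and 7 rose and 5 fell in KI ASK1i, with or without replicate 5. Adm (1.94, adjusted p = 1.63e-07) and Ddit4 (2.61, adjusted p = 1.76e-06) were among those higher, and Higd1a (-0.68, adjusted p = 1.38e-05) and Bnip3 (-0.90, adjusted p = 0.000123) among those lower. Genes of this list thus went both ways, as did all genes tested.

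The ASK1i diet changed few of the 36 genes. In WT, 2 rose and 0 fell, against 1.13% and 0.268% of all genes tested (1.4% together). At an unadjusted p under 0.05 there were 11 higher and 1 lower, and DESeq2 called 4 higher and 0 lower. Shares of all genes are not given here for these 2 settings, so the counts are not read as a trait of the module. Pfkfb1 held 19.6, 23.0 and 35.6 CPM (lowest, median, highest) in WT ASK1i, against 9.60, 14.1 and 31.7 CPM in WT control (log2 fold change 0.62, SE 0.13, adjusted p = 0.00857). The highest WT control value was replicate 2P, above 7 of the 8 WT ASK1i libraries. Pdk2 held 85.7, 103 and 144 CPM in WT ASK1i, against 58.2, 76.0 and 104 CPM in WT control (log2 fold change 0.48, SE 0.13, adjusted p = 0.0464), and 4 of 8 WT ASK1i libraries exceeded every WT control library. The call of Pdk2 was near the threshold and ended in 25 of 33 fits that left out 1 library, with a highest adjusted p of 0.159, whereas that of Pfkfb1 held in all 33. Both calls ended within numbered titles alone (0.71, adjusted p = 0.0867, and 0.40, adjusted p = 0.483). Pgk1, at 0.32 (SE 0.09), adjusted p = 0.0661, lay higher in all 8 WT ASK1i libraries than in every WT control library without passing, and passed without KI ASK1i replicate 5 (adjusted p = 0.0354). All 7 genes of the shared middle steps had fitted values between 0.18 and 0.32 in WT, none of which passed in the model of all libraries. Pgam1 (0.29, adjusted p = 0.0875) passed without KI ASK1i replicate 5 (0.28, adjusted p = 0.038), and DESeq2 called Pgk1 (adjusted p = 0.0151) and Pgam1 (adjusted p = 0.0339). Outside the 36, Aldoc, an aldolase, rose in WT, averaging 25.5 ± 2.98 CPM (SD, n = 8) in WT ASK1i and 11.1 ± 5.12 CPM (SD, n = 10) in WT control (log2 fold change 1.17, SE 0.21, adjusted p = 0.00156), with all 8 ASK1i libraries above every control library.

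In KI, no gene of the 36 passed with the inhibitor, against 0% of all genes higher and 0.0536% lower. DESeq2 also called 0 in each direction. At an unadjusted p under 0.05 there were 5, and the share of all genes at that threshold was not counted. Of these, Pgk1 (0.29), Gckr (0.25) and Pklr (0.88) were higher, and Hk1 (-0.49) and Pfkl (-0.21) lower, with adjusted p = 0.429, 0.455, 0.462, 0.429 and 0.449. Without replicate 5 the values were 0.26 for Pgk1, 0.21 for Gckr, -0.40 for Hk1 and -0.20 for Pfkl, with adjusted p = 0.502, 0.559, 0.484 and 0.523. In that fit the value of Pklr was 0.43 (SE 0.23), adjusted p = 0.595. That of Slc2a2 was -0.68 (SE 0.29), against 0.64 (SE 0.77) with replicate 5. Its unadjusted p was then 0.0291 and its adjusted p 0.521, so neither gene passed the threshold. With that library left out, the values of the genes that set KI apart from WT were -0.31 (SE 0.18) for Pkm, -0.34 (SE 0.30) for Slc2a3, -0.24 (SE 0.18) for Hk2, 0.13 (SE 0.42) for G6pc and 0.27 (SE 0.25) for Gys2, none past the threshold. The difference between genotypes in the diet effect was tested directly as an interaction. It called 0 of the 36 genes and 0% of all genes tested, by DESeq2 also 0 of the 36. At an unadjusted p under 0.05 there were 3, again without a count over all genes: Pfkl (-0.37, adjusted p = 0.453), Ldha (0.56, adjusted p = 0.483) and Pfkfb1 (-0.42, adjusted p = 0.587). Without replicate 5 it also called 0 of the 36, and these values were -0.37 (adjusted p = 0.347) for Pfkl, 0.55 (adjusted p = 0.387) for Ldha and -0.41 (adjusted p = 0.519) for Pfkfb1. The genes at an unadjusted p under 0.05 were then Pfkl, Ldha, Slc2a2 (-1.03, adjusted p = 0.4) and Pdk2 (-0.35, adjusted p = 0.448). The genotype and diet comparisons share control libraries, so their values are given side by side and not set against each other.

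**Figure D5:**
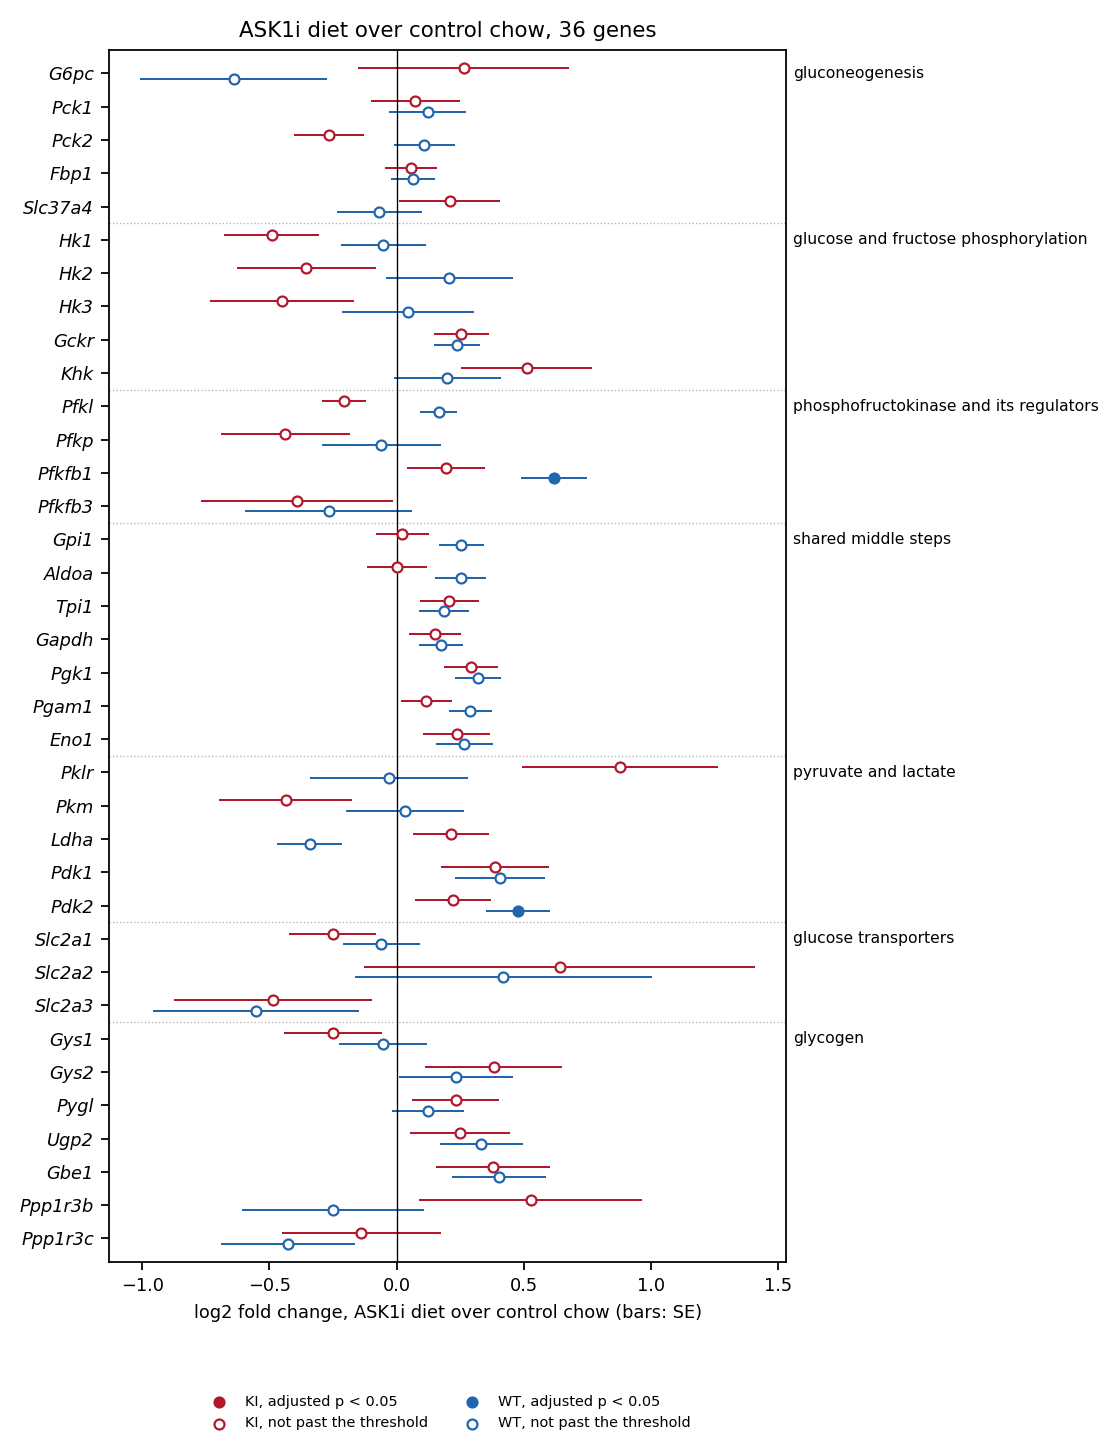
Log2 fold change of the ASK1i diet over control chow for 36 genes in KI and in WT, with bars of 1 SE; filled points have an adjusted p under 0.05. The filled points are Pfkfb1 (0.62) and Pdk2 (0.48) in WT, and no point is filled in KI.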

How the data were processed

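Per the labels' protocols, RNA came from frozen liver (Qiagen miRNeasy) and libraries from the TruSeq Stranded mRNA kit. The submitters' processing notes name mm10 and, as software, RSEM 1.2.14, STAR 2.4 and CASAVA 1.8.2; no source used here states the annotation or strand setting. The authors deposited RSEM expected counts per gene without normalisation, of which 91.4% to 93.7% were whole per library. After rounding, all 33 libraries entered 1 model with group, sex and title set in edgeR 4.0.16 under R 4.3.3 (TMM, filterByExpr by group, robust quasi-likelihood F test, two-sided). P-values were Benjamini-Hochberg adjusted over 14934 genes, with a threshold of 0.05. Log2 fold changes used a prior count of 0.125. SE is the fold change divided by the root of F. CPM used TMM library sizes, and levels per kilobase merged exon lengths of GENCODE M21. Genes given with each KI control value had the 8 smallest p in each direction on control chow or led their step in level. Ppp1r3b, whose values spread widely, was listed too. Up to 3 genes per direction with the smallest p were named from each related list, and Aldoc was added after its values were seen. Members and lists were chosen with earlier results of these data known. All 128 pairs of libraries within a group differed beyond sampling noise. Alternatives were RLE size factors, DESeq2 1.42.0, other filters, other covariates, subsets by title set and sex, and each library left out. The fit was tested on simulated data.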

Additional observations from a re-analysis of the deposited data

Results flagged for a closer look

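In 17 of 144 combinations of gene and group, 1 library lay further from the others than Dixon's 95% limit allows. Chance gives about 1 in 20 for normally spread values in independent tests. Here the genes share libraries and CPM were not put on a log scale, so that rate cannot be set against the 17 combinations. The library labelled KI ASK1i replicate 5 was the highest of its group in 10 of them: Slc2a2 (334 CPM), Pklr (320.1 CPM), Khk (366 CPM), Slc37a4 (372 CPM), Eno1 (665 CPM), Pdk1 (90.4 CPM), Pdk2 (73.2 CPM), Pygl (480.2 CPM), Ugp2 (343 CPM) and Gbe1 (117 CPM). In 9 of these 10 genes its value stood within or above the range of WT ASK1i; the exception was Pdk2, where WT ASK1i began at 85.7 CPM.

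The other 7 were single genes. In KI control, replicate 1 was highest for Slc37a4 (168 CPM) and lowest for Ugp2 (121 CPM), and replicate 2 highest for Pklr (63.5 CPM). In KI ASK1i, replicate 2P was highest for Fbp1 (1122 CPM), replicate 4 for Pfkfb3 (36.8 CPM) and replicate 2 for Gys1 (10.5 CPM). In WT control, replicate 2P was highest for Pfkfb1 (31.7 CPM).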

How the results depend on the processing

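Counts are given as higher and lower genes of the 36. Shares of all genes in each alternative fit are not given here, so changes in these counts are not read as a trait of the module. On control chow (12 and 20) the range over fits that left out 1 library was 11 to 12 and 16 to 20, and on the ASK1i diet (11 and 21) it was 10 to 12 and 17 to 21. The lower counts moved with females alone (2 on control chow, where KI control has 1 female library) and with numbered titles alone (13 on the ASK1i diet). The 2 rises with the inhibitor in WT were 1 to 4 with 1 library left out, 4 with DESeq2, 1 without a count filter, 1 without covariates, 1 with the replicate block, and 0 with the L code as a term, in numbered titles, in males and in females. Diet counts in KI and the interaction were 0 throughout. With the replicate block, control chow gave 12 and 17 and the ASK1i diet 10 and 19; the numbers were not taken as pairing samples (37 same-numbered pairs correlated at -0.21 to 0.36, and 4 of 33 libraries were closest to their own number). With the L code as a term, control chow gave 9 and 14. One gene reversed: Pfkfb3 on the ASK1i diet, 0.26 as reported, was -0.64 (adjusted p = 0.0333) with the L code as a term; the cause was not tested. Of 66 calls, 64 kept their side with RLE size factors, 65 with DESeq2, 61 without a count filter, 60 without covariates, 59 with a filter at a mean of 1 CPM, 58 with the replicate block, 53 with the L code, 50 in numbered titles alone, 48 in males alone and 36 in females alone, and 58 to 65 with 1 library left out. The lowest count of any of the 36 genes in a library was 16, for Slc2a3.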
